A study of Nicotiana tabacum with 6 samples.

Results

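Nontransgenic (NT) tobacco seeds, imbibed for 24 h in the dark, were compared with NT tobacco seedlings that were 3 weeks old and had grown under a photoperiod of light and dark. The members were the genes of the A9up table that had an FPKM of at least 1 in either NT library, FPKM being fragments scaled to transcript length and library size. There were 1482 such members among the 4753 genes with a value in both libraries. The A9up table lists genes that sunflower HSFA9 (A9), a heat stress transcription factor of seeds, increased both in seeds (DS10:A9) and in seedlings (35S:A9), and the NT values are those of the sibling controls. The members are therefore a selected set of genes, not the transcriptome of either stage.

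The series holds 6 RNA-seq libraries of Nicotiana tabacum var. Xanthi: DS10:A9 seeds, DS10:A4a seeds, 35S:A9 seedlings and 3 NT libraries, of which 2 are from seeds and 1 from seedlings. DS10 is a promoter active in seeds, 35S drives expression throughout the plant, and A4a is a second sunflower heat stress factor. The NT plants were siblings without a transgene that had segregated from the transgenic lines of their own experiment. The NT seeds of the A9up table came from DS10:A9 lines and the NT seedlings from 35S:A9 lines. The other NT seeds came from DS10:A4a lines. Each library was made from an equimolecular mix of 4 RNA samples, so there was 1 value per stage, no replicate error and no test of any difference. The seed and seedling libraries were also normalized separately. Organ, age, parent lines, imbibition in the dark and growth in the light all differed between them and cannot be told apart.

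A dry seed holds stored reserves and messenger RNA made during maturation, among them transcripts of chaperones that protect proteins during drying. Imbibition restarts respiration, and the seedling then builds chloroplasts, cell walls and vascular tissue and comes to live from photosynthesis. In imbibed seeds kept in the dark the plastids are still undifferentiated, and genes of the photosynthetic apparatus are known to need light for full expression.

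The tissue labels were checked against markers. All 11 light-harvesting chlorophyll a/b proteins among the members were lower in NT seeds, and 8 of them were listed at 0 there. Of 7 photosystem and RuBisCO-related members, 6 were lower and 1 lay within 2-fold. The latter, the photosystem II gene_38985, had 22.5 FPKM in NT seeds and 42.54 in NT seedlings, so it did not mark seedlings. In bulk tissue, fewer cells of a type and less RNA per cell cannot be told apart. Storage proteins, oil-body proteins, late embryogenesis abundant proteins and dehydrins, which mark seeds, gave 0 members. The A9up table held 2 such genes, and both stayed under 1 FPKM in NT seeds and in NT seedlings. The seed label therefore had no member to rest on. In the tables of the DS10:A4a experiment, whose NT library is also from seeds, 18 genes carried such a description. Among these, the basic 7S globulin-like genes gene_4978 and gene_7123 had 24.83 and 19.75 FPKM and the oleosin 1-like gene_77511 had 18.08 FPKM, while the median of the 18 genes was 0.36 FPKM. No seedling value of these genes was used here.

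Depth was recovered from the steps of the low FPKM values and came to about 11300000 fragments for NT seeds and 13200000 for NT seedlings. An FPKM of 1 then stands for about 10.6 fragments in NT seeds and 12.6 in NT seedlings for a transcript of 1 kb. Log2 ratios of NT seeds over NT seedlings are given with exact 95% Clopper-Pearson intervals from these fragments. The intervals cover counting error only. Where a library was listed at 0, the fold is a bound against 3 fragments in that library. A member was called higher or lower in NT seeds at a fold of 2 or more.

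Most members were less abundant in NT seeds. Of the 1482 members, 332 were higher in NT seeds (22.4%) and 814 were lower (54.9%), 331 lay within 2-fold, and 5 listed at 0 in one library allowed no fold. Over all 4753 genes of the table the calls were 13.7% higher and 29.1% lower. An FPKM of at least 1 was reached by 717 members in NT seeds and by 1187 in NT seedlings, with 422 in both. The summed FPKM of the members was 5182 in NT seeds and 10343 in NT seedlings. Among the 1175 members above 0 in both libraries the median log2 ratio was -1.0 (quartiles -3.10 and 0.93), and the range ran from -12.08 to 9.26. Centred on that median, 497 members were higher and 647 lower, and the share of lower among the calls was 56.6% in place of 71.0%. The counts that follow are uncentred, and a group's centred counts are given where centring moved its number of higher or lower members by more than 1.5 times.

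**Figure D1:**
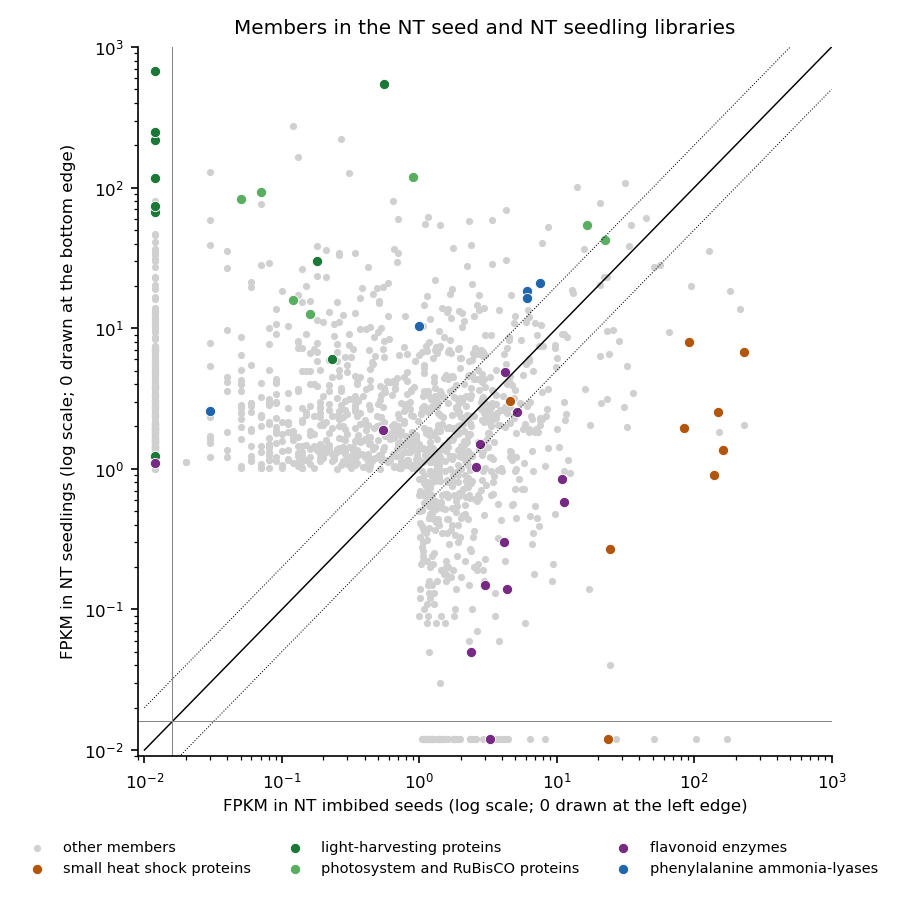
Each point is 1 of the 1482 members, with its FPKM in NT seeds on the x axis and in NT seedlings on the y axis, both on log scales; values of 0 are drawn at the edges, the solid line marks equal FPKM and the dotted lines a fold of 2. Light-harvesting proteins sit at the upper left, 8 of them at 0 in NT seeds, small heat shock proteins sit at the lower right except for 1 near the line, and phenylalanine ammonia-lyases and flavonoid enzymes lie mostly on opposite sides.

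The differences were often large. A fold of at least 8 was reached by 105 members higher and 464 members lower in NT seeds, and one of at least 32 by 27 and 178 members. The whole counting interval lay beyond a fold of 2 for 180 higher and 624 lower members. It included no change for 376 members. Depth limits the rest, since 1087 members stayed under 5 FPKM in both libraries, and the median member had 8 fragments in NT seeds and 31 in NT seedlings. In NT seeds 247 members were listed at 0 and in NT seedlings 60.

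Small heat shock proteins and a BAG-type chaperone cofactor were among the most abundant members in NT seeds, beside other genes described further on. Small heat shock proteins bind unfolding proteins and keep them from aggregating, and in plants they accumulate both under heat and during seed maturation. Of 9 such members, 8 were higher in NT seeds and 0 were lower, and their summed FPKM was 912 in NT seeds and 24.7 in NT seedlings. The list's median log2 ratio was 5.87, beside -1.40 over all members with zeros at their bound.

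Among class I (cytosolic) members, gene_79900 had 232.01 FPKM in NT seeds and 6.73 in NT seedlings, a log2 ratio of 5.11 (4.73 to 5.52). gene_2804 had 148.1 and 2.54 FPKM (log2 ratio 5.87, 5.35 to 6.49), and gene_66148 had 92.36 and 7.93 FPKM (3.54, 3.20 to 3.90), in NT seeds and NT seedlings. A further class I gene, gene_26623, had 84.78 FPKM in NT seeds and 1.95 in NT seedlings. In each of these genes the NT seed value was over 10 times the seedling value, and all were above 0 in seedlings.

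Members of other classes had the same direction. gene_24514, a class II protein also found in the cytosol, had 162.15 FPKM in NT seeds and 1.35 in NT seedlings, a log2 ratio of 6.91 (6.13 to 7.82). The gene_25232 protein, described as mitochondrial, had 139.94 and 0.91 FPKM, a log2 ratio of 7.26 (6.46 to 8.23). A second gene described as mitochondrial, gene_81743, had 23.55 FPKM in NT seeds and was listed at 0 in NT seedlings, which makes it at least 116-fold higher in seeds. gene_28690 had 24.61 FPKM in NT seeds and 0.27 in NT seedlings. The exception was the class IV gene_67564, with 4.55 FPKM in NT seeds and 3.05 in NT seedlings, a log2 ratio of 0.58 (0.06 to 1.09). With the 7.1 FPKM of the other NT seed library, that of the DS10:A4a experiment, gene_67564 had a log2 ratio of 1.22 and would count as higher.

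Larger chaperones showed the same side. Of 6 members of the HSP70, HSP90 and HSP101 families, 5 were higher in NT seeds and 0 lower. gene_6664 had 51.27 FPKM in NT seeds against 0 in NT seedlings, at least 119-fold higher, and gene_60513 had 27.01 FPKM against 0, at least 151-fold higher. Both are described as mediator subunit 37a, a name that HSP70 proteins carry, and the other description of gene_6664 is luminal-binding protein, the HSP70 of the endoplasmic reticulum. gene_16507, a mitochondrial ClpB-type protein that pulls apart protein aggregates, had 35.92 FPKM in NT seeds and 3.44 in NT seedlings (log2 ratio 3.38, 3.10 to 3.68). gene_36751, an HSP90-type protein, had 6.34 FPKM in NT seeds and was listed at 0 in NT seedlings. gene_74413 and gene_70529, both BAG family regulators 6, cofactors that bind HSP70, had 215.08 and 183.7 FPKM in NT seeds against 13.67 and 18.31 FPKM in NT seedlings.

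Chaperones were not all alike in this respect. The DnaJ cochaperone gene_6173 had 20.56 FPKM in NT seeds and 20.13 in NT seedlings (log2 ratio 0.03, -0.16 to 0.22). The mitochondrial chaperonin gene_39269 (CPN60-2) had 56.13 and 28.08 FPKM, just inside the fold of 2. With the 69.89 FPKM of the other NT seed library, gene_39269 had a log2 ratio of 1.32 and would count as higher. The only heat stress transcription factor among the members, gene_84967 of class B, had 0.09 FPKM in NT seeds, about 1 fragment, and 10.79 FPKM in NT seedlings (log2 ratio -6.91, -12.17 to -4.36). The other NT seed library listed gene_84967 at 0.9 FPKM, which gave a log2 ratio of -3.58, outside that interval.

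**Figure D2:**
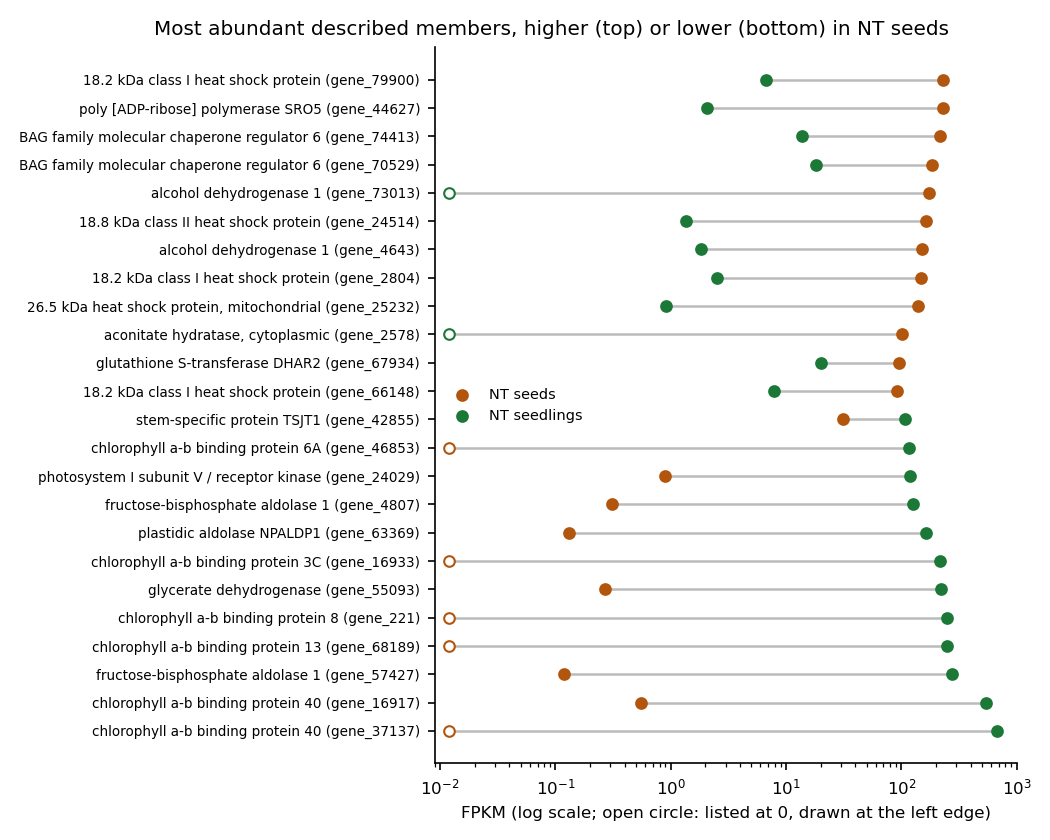
FPKM on a log scale in NT seeds and NT seedlings for the 12 most abundant described members that were higher in NT seeds (top) and the 12 that were lower (bottom); lines join the libraries of a gene and open circles mark a listed 0. Heat shock proteins, BAG regulators and alcohol dehydrogenases make up most of the upper rows and light-harvesting proteins and plastid aldolases most of the lower rows.

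Genes with other functions stood beside the chaperones at the top of NT seeds. gene_73013 and gene_4643, both alcohol dehydrogenase 1, which turns acetaldehyde into ethanol when oxygen is short, had 172.53 and 150.42 FPKM in NT seeds against 0 and 1.83 FPKM in NT seedlings. The first was at least 1043-fold higher in seeds and the second had a log2 ratio of 6.36 (5.90 to 6.86). gene_44627, described as the probable inactive poly(ADP-ribose) polymerase SRO5, had 229.77 FPKM in NT seeds and 2.05 in NT seedlings (log2 ratio 6.81, 6.42 to 7.23). gene_2578, described as aconitate hydratase, which interconverts citrate and isocitrate, had 102.32 FPKM in NT seeds and was listed at 0 in NT seedlings, at least 119-fold higher; its transcript model is only 308 bases long. gene_67934, a dehydroascorbate reductase that regenerates ascorbate, had 95.2 and 20.07 FPKM in NT seeds and NT seedlings.

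Other antioxidant enzymes were mostly lower in NT seeds, as most members were. Of 11 antioxidant and glutathione members, 2 were higher in NT seeds and 8 lower, and 2 were higher and 5 lower after centring. Over all members 22.4% were higher and 54.9% lower, and 33.5% and 43.7% after centring. The cytosolic ascorbate peroxidases 2 gene_79769 and gene_15689 had 6.2 and 3.8 FPKM in NT seeds against 13.53 and 13.48 in NT seedlings. The H-type thioredoxin gene_17966 had 6.78 FPKM in NT seeds and 0.18 in NT seedlings, while the thioredoxin gene_79930 was listed at 0 in NT seeds and had 3.09 FPKM in NT seedlings. The summed FPKM of the 11 members was close, 114 in NT seeds and 107 in NT seedlings, and gene_67934 made up most of the seed sum.

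Proteins of the photosynthetic apparatus were the most abundant members of NT seedlings. Light-harvesting proteins bind chlorophyll and pass light energy to the photosystems. The summed FPKM of the 11 members was 0.96 in NT seeds and 2225 in NT seedlings. gene_37137 was listed at 0 in NT seeds and had 671.02 FPKM in NT seedlings, the highest value of any member, and was at least 1114-fold lower in seeds. gene_16917 had 0.55 FPKM in NT seeds, about 8 fragments, and 545.64 FPKM in NT seedlings (log2 ratio -9.95, -11.17 to -8.98). gene_221, gene_68189 and gene_16933 were each listed at 0 in NT seeds and had 246.63, 249.4 and 216.81 FPKM in NT seedlings. The least abundant in NT seedlings was gene_6987, a minor antenna protein (CP24), with 0 in NT seeds and 1.23 FPKM.

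The photosystem I subunits among the members differed more between the stages than the photosystem II members, which share a description. Subunits II and VI of photosystem I, gene_59269 and gene_60359, had 0.07 and 0.05 FPKM in NT seeds, about 1 fragment each, against 92.72 and 83.43 FPKM in NT seedlings. Their log2 ratios were -10.37 (-15.63 to -7.84) and -10.70 (-15.90 to -8.12). The photosystem II members, both described as the 10 kDa polypeptide of the oxygen-evolving side, were expressed at both stages. gene_70553 had 16.6 and 54.07 FPKM (log2 ratio -1.70, -2.02 to -1.40) and gene_38985 had 22.5 and 42.54 FPKM (-0.92, -1.20 to -0.64) in NT seeds and NT seedlings. RuBisCO activases, which keep the carbon-fixing enzyme active, were low in NT seeds, with 0.12 FPKM for gene_62894 and 0.16 for gene_72548 against 15.82 and 12.52 FPKM in NT seedlings. gene_24029, with 0.9 FPKM in NT seeds and 118.26 in NT seedlings, was described both as a photosystem I subunit and as a receptor-like kinase, and its model was 3282 bases long in the seed row and 1234 in the seedling row, so that its values may not belong to the same transcript.

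Several single enzymes of plastid carbon metabolism and of photorespiration, which salvages the by-product of RuBisCO's reaction with oxygen, are named here for their large values or differences and not as a count of a pathway. The plastid aldolase gene_57427 had 0.12 FPKM in NT seeds, about 2 fragments, and 273.93 FPKM in NT seedlings (log2 ratio -11.16, -14.25 to -9.35). The plastid aldolases gene_63369 and gene_4807 had 0.13 and 0.31 FPKM in NT seeds against 164.14 and 126.59 in NT seedlings. Of the photorespiratory enzymes, glycerate dehydrogenase (gene_55093) had 0.27 FPKM in NT seeds and 220.66 in NT seedlings (-9.67, -11.28 to -8.44), and serine-glyoxylate aminotransferase (gene_10539) had 0.03 and 58.89 FPKM. Across all 107 members described as chloroplastic, 9 were higher and 88 lower in NT seeds, with a median log2 ratio of -4.27. Across the 36 described as mitochondrial and not chloroplastic, 10 were higher and 13 lower, with a median of -0.03. After centring 18 of the 36 were higher and 10 lower. Over the 15 of them listed with the other NT seed library, the median with that library was 1.32.

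All 5 members of the chlorophyll and carotenoid list were lower in NT seeds. The magnesium chelatase subunit ChlH (gene_84978), at the entry to the chlorophyll branch, had 0.03 FPKM in NT seeds, about 1 fragment, and 38.83 in NT seedlings (log2 ratio -10.34, -15.64 to -7.86). Glutamyl-tRNA reductase (gene_15675), at the start of tetrapyrrole synthesis, was listed at 0 and had 18.92 FPKM. The phytoene synthases gene_119 and gene_65447, which open the carotenoid pathway, had 0.15 and 1.62 FPKM in NT seeds against 20.01 and 13.74 in NT seedlings.

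**Figure D3:**
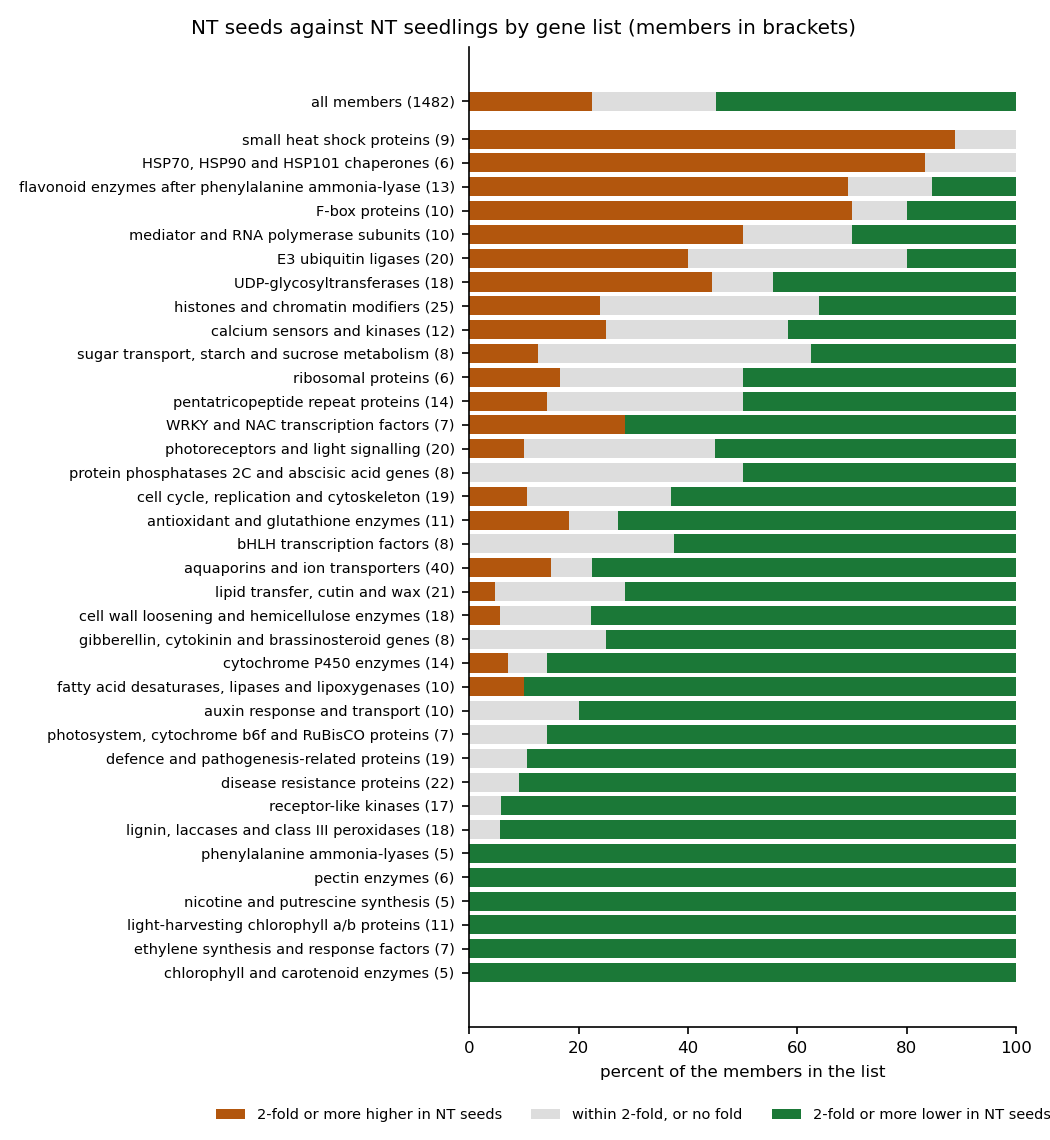
Share of members in each class, for the gene lists with 5 or more members. Classes are 2-fold or more higher in NT seeds, within 2-fold (or with no fold), and 2-fold or more lower. The number of members is in brackets, and all 1482 members are in the top bar (22.4% higher, 54.9% lower). Flavonoid synthesis is drawn as phenylalanine ammonia-lyases and the enzymes after them. Other sublists, lists by organelle and retrotransposon-derived proteins are left out. Small heat shock proteins (8 of 9) and larger chaperones (5 of 6) have the largest shares higher, and 6 lists at the bottom hold only members that were lower.

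Of 20 photoreceptor and light-signalling members, 2 were higher and 11 lower in NT seeds, and 4 were higher and 6 lower after centring. Over all members 22.4% were higher and 54.9% lower, and 33.5% and 43.7% after centring. The share of lower members was thus near that of all members, and no photoreceptor was called higher. Phototropin-2 (gene_28646, PHOT2), a blue-light receptor, differed most, with 0.34 FPKM in NT seeds and 34.01 in NT seedlings (log2 ratio -6.64, -7.51 to -5.88). Phytochrome C (gene_32028), a red-light receptor, was listed at 0 in NT seeds and had 1.91 FPKM in NT seedlings. Phytochrome B (gene_78577), the main red-light receptor of seedlings, had 1.97 and 5.2 FPKM (-1.40, -1.79 to -1.03).

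Phytochrome A, the far-red receptor that is abundant in the dark, differed less between the stages than phototropin-2. Its intervals overlapped that of phytochrome B (-1.79 to -1.03). gene_22791 (PHYA1) had 6.31 FPKM in NT seeds and 12.09 in NT seedlings (log2 ratio -0.94, -1.28 to -0.60), and gene_22797 had 4.96 and 12.29 FPKM (-1.31, -1.66 to -0.96). COP1 (gene_80985), the ubiquitin ligase that represses light responses in the dark, had 2.2 and 3.3 FPKM. The members higher in NT seeds were the 2 genes described as HY5, a bZIP factor that promotes greening and that COP1 degrades in the dark. gene_78854 had 5.8 FPKM in NT seeds and 1.1 in NT seedlings (2.40, 1.52 to 3.28). gene_57696 (HY5) had 1.14 and 0.31 FPKM, about 7 and 2 fragments, and its interval included no change (1.88, -0.51 to 5.19).

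Of the 18 phenylpropanoid and flavonoid members, 9 were higher and 7 lower in NT seeds, with a median log2 ratio of 0.94. After centring 10 were higher and 3 lower. They are given below by place in the pathway, a split made after the values were seen. Phenylalanine ammonia-lyase takes the first step from phenylalanine toward lignin and flavonoids alike, chalcone synthase the first step of the flavonoid branch, and flavonoids include the pigments of the seed coat. All 5 phenylalanine ammonia-lyases were lower in NT seeds, and 2 of them remained 2-fold lower after centring. Of the 13 flavonoid enzymes after that step, 9 were higher, 2 lower and 2 within 2-fold, and 10 were higher and 1 lower after centring. Several of these genes share a description, and whether they share reads was not tested.

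Among the phenylalanine ammonia-lyases, gene_65313, gene_12758 and gene_16676 had 7.58, 6.11 and 6.05 FPKM in NT seeds against 20.94, 18.39 and 16.35 FPKM in NT seedlings, with log2 ratios between -1.59 and -1.43. gene_35620 had 0.99 and 10.35 FPKM, and gene_76430 had 0.03 FPKM in NT seeds, about 1 fragment, and 2.56 FPKM in NT seedlings. The 3 most abundant copies thus differed least.

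Chalcone synthases lay on the other side. gene_5201 had 11.29 FPKM in NT seeds and 0.58 in NT seedlings (log2 ratio 4.28, 3.36 to 5.36), and gene_77491 (CHS) had 10.98 and 0.85 FPKM (3.69, 2.92 to 4.55). Flavonol synthase gene_8049 (FLS), which makes flavonols, had 4.13 and 0.3 FPKM (3.78, 2.57 to 5.26). Dihydroflavonol reductase gene_26836 (DFR), of the branch to anthocyanins and proanthocyanidins, had 3.01 and 0.15 FPKM (4.33, 2.64 to 6.62). The ratios of these 4 genes were all above 10-fold.

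The anthocyanidin 3-O-glucosyltransferases, which add sugar to anthocyanidins, had the largest ratios of the branch. gene_53260 had 3.28 FPKM in NT seeds and was listed at 0 in NT seedlings, at least 20.9-fold higher. gene_35956 had 4.38 and 0.14 FPKM and gene_53094 had 2.38 and 0.05 FPKM in NT seeds and NT seedlings. On the other side, a chalcone isomerase-type gene (gene_71101) had 0.54 FPKM in NT seeds and 1.89 in NT seedlings, and the flavonol synthase-like gene_47345 was listed at 0 and had 1.1 FPKM. The multidrug-type transporter gene_7339, described as TRANSPARENT TESTA 12-like after the Arabidopsis protein that carries flavonoids into the vacuole of the seed coat, had 32.28 FPKM in NT seeds and 1.99 in NT seedlings.

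**Figure D4:**
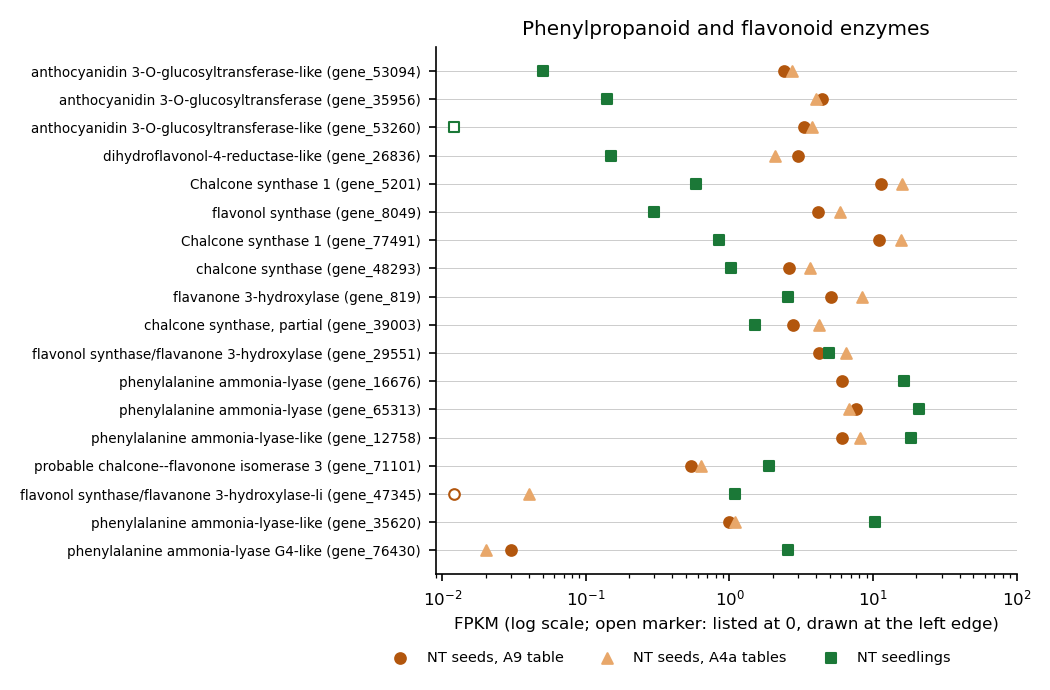
FPKM on a log scale of the 18 phenylpropanoid and flavonoid members in the NT seeds of the A9 table, in the NT seeds of the A4a tables where the gene was listed there, and in NT seedlings; open markers are a listed 0. In all 5 phenylalanine ammonia-lyases the seed values lie left of the seedling value, and in the chalcone synthases, dihydroflavonol reductase and anthocyanidin glucosyltransferases they lie right of it.

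Genes of lignin and of the cell wall were lower in NT seeds. Of 18 members for lignin, laccases and class III peroxidases, 0 were higher and 17 lower. Cinnamyl alcohol dehydrogenase (gene_10734), which makes the lignin alcohols, had 0.69 FPKM in NT seeds and 29.53 in NT seedlings (log2 ratio -5.42, -6.29 to -4.65). Of 18 members for wall loosening and hemicellulose, 1 was higher and 14 lower (3 and 12 after centring), with the structural extensin-3-like gene_40779 at 0 in NT seeds and 20.28 FPKM in NT seedlings. All 6 pectin members were lower.

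Surface lipids and plastid lipids followed. Of 21 members for lipid transfer, cutin and wax, 1 was higher and 15 lower, and 6 were higher and 12 lower after centring. ECERIFERUM 1-like gene_73947, of wax alkane synthesis, had 0.14 FPKM in NT seeds and 26.37 in NT seedlings, and the 3-ketoacyl-CoA synthase gene_64324, which elongates fatty acids, was listed at 0 and had 22.68 FPKM. The 3-ketoacyl-CoA synthases 4, gene_71620 and gene_45344, did not share this, with 10.95 and 2.83 FPKM in NT seeds against 9.07 and 2.68 in NT seedlings. The plastid omega-6 desaturase gene_14511 had 3.38 and 59.1 FPKM (log2 ratio -4.13, -4.67 to -3.62).

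Transport proteins for water and minerals were mostly lower as well, 31 of 40 members against 6 that were higher. All 9 aquaporins, the water channels of membranes, were lower, with summed FPKM of 7.39 in NT seeds and 142 in NT seedlings. The most abundant, gene_35925 (a PIP2 type), had 4.3 and 69.22 FPKM (log2 ratio -4.01, -4.45 to -3.59). The nitrate transporter subunit gene_21892 had 0.26 FPKM in NT seeds and 34.27 in NT seedlings, and the ferredoxin-nitrite reductase gene_83573, which reduces nitrite in plastids, had 0.26 and 33.31 FPKM. Potassium transporters were found on both sides, with 7.11 and 1.92 FPKM for gene_7691 but 0 and 11.94 FPKM for gene_80105 in NT seeds and NT seedlings.

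Defence and surface receptors were lower in NT seeds. Of 17 receptor-like kinases 16 were lower, of 22 disease resistance proteins 20, and of 19 defence and pathogenesis-related proteins 17, with 0 higher in each. The proteinase inhibitors II gene_27778 and gene_27772, which block digestive enzymes of insects, had 2.3 and 1.42 FPKM in NT seeds against 57.99 and 54.4 in NT seedlings. After centring, 13 of the 22 disease resistance members were lower, and of the defence and pathogenesis-related proteins 2 were higher and 14 lower.

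Hormone lists had few or no members higher in NT seeds. The 7 members with a name of ethylene synthesis or response were all lower. The names include ethylene-responsive factors RAP2-7-like (gene_4527, gene_10899) and WRI1-like (gene_12287), and a role in ethylene was not tested. The most abundant was gene_52800, described as a homolog of ACC oxidase, with 0 in NT seeds and 79.72 FPKM in NT seedlings. Its transcript model is only 271 bases long. Of 10 auxin members 8 were lower, and gene_83643, a small auxin-up protein, was listed at 0 in NT seeds and had 16.54 FPKM in NT seedlings. Of 8 members for gibberellin, cytokinin and brassinosteroids 6 were lower and 0 higher, and 4 were lower and 2 higher after centring. The gibberellin receptor gene_1341 (GID1B-like), whose family perceives the hormone that promotes germination, lay within 2-fold with 3.18 and 2.66 FPKM. All 5 members of nicotine and putrescine synthesis were lower. The putrescine N-methyltransferases gene_67870 and gene_15759, which catalyse the first step committed to nicotine, had 0 and 0.06 FPKM in NT seeds against 8.65 and 5.47 in NT seedlings.

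Core histones, which package DNA and are made mainly during replication, were lower in 9 of 13 members and higher in 3. The histone H3.2-like gene_63552 had 3.36 FPKM in NT seeds and 28.6 in NT seedlings (log2 ratio -3.09, -3.71 to -2.49), and the H4-like gene_11133 had 0.37 and 9.87 FPKM. The H2B-like genes differed among themselves, with 10.04 and 1.92 FPKM for gene_6783 and 7.87 and 3.52 FPKM for gene_58875, but 0.71 and 2.28 FPKM for gene_41928, in NT seeds and NT seedlings. The linker histones H1, gene_68331 and gene_54910, were abundant at both stages, with 44.39 and 34.44 FPKM in NT seeds and 60.51 and 54.42 in NT seedlings. Of 19 cell cycle, replication and cytoskeleton members 12 were lower and 2 higher, where 54.9% of all members were lower and 22.4% higher. The cyclin D3-like gene_16282, which drives entry into the cell cycle, had 0.06 and 2.79 FPKM.

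Among lists of transcription and protein turnover, several held more members higher than lower in NT seeds. Of 10 mediator and RNA polymerase members 5 were higher and 3 lower, and 6 were higher and 1 lower after centring. The RNA polymerase subunit 6 genes gene_40221 and gene_40196 had 17.1 and 9.68 FPKM in NT seeds against 0.14 and 0.48 FPKM in NT seedlings, about 1 and 2 fragments, with log2 ratios of 6.93 (4.57 to 12.39) and 4.33 (2.37 to 7.45). Of 10 F-box proteins, which choose substrates for ubiquitin ligases, 7 were higher, led by gene_34923 with 5.91 and 0.08 FPKM. Of 20 ubiquitin ligases 8 were higher, 4 lower and 8 within 2-fold. Of 3 MYB factors 2 were higher and 1 lower. The bHLH, WRKY and NAC lists leaned lower, as all members did (22.4% higher and 54.9% lower). Of 8 bHLH factors 0 were higher and 5 lower, and 3 were higher and 4 lower after centring. Of 7 WRKY and NAC factors 2 were higher and 5 lower.

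Of the 12 linker histones and chromatin regulators, 3 were higher in NT seeds, 0 lower and 9 within 2-fold. After centring, 9 of these 12 were higher, 0 lower and 3 within 2-fold. Histone deacetylase 19 (gene_9030) had 5.69 FPKM in NT seeds and 4.63 in NT seedlings. The H3 lysine-9 methyltransferase gene_36470, of a family that silences chromatin, had 5.05 and 1.8 FPKM, and the histone chaperone gene_58383 (ASF1B) had 1.46 and 0.65 FPKM (log2 ratio 1.17, 0.00 to 2.45). The largest ratio to seeds among members above 0 in both libraries was that of gene_73802, described as histidine kinase CKI1-like, with 24.51 FPKM in NT seeds and 0.04 in NT seedlings, about 2 fragments (9.26, 7.20 to 12.10). In Arabidopsis CKI1 acts in the cytokinin pathway and in the female gametophyte. gene_52863, described as WUSCHEL-related homeobox 11, had 9.4 FPKM in NT seeds and 0.21 in NT seedlings.

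Sucrose synthases were abundant and even between the stages. gene_68759 and gene_81189, which split sucrose for use in metabolism, had 23.29 and 21.95 FPKM in NT seeds and 23.19 and 23.18 FPKM in NT seedlings, with log2 ratios of 0.01 (-0.13 to 0.14) and -0.08 (-0.22 to 0.07). The vacuolar acid invertase gene_46628, which splits sucrose by another reaction, had 0.04 FPKM in NT seeds and 26.59 in NT seedlings. Of 32 retrotransposon-derived members, 6 were higher, 9 lower and 16 within 2-fold, and after centring 15 were higher, 5 lower and 11 within 2-fold.

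Tobacco carries chromosome sets from a pair of ancestral species, and 112 products were described for exactly 2 members each. These pairs go by description alone. Whether they are ancestral copies, other members of a family or parts of a single gene was not tested. In 85 of these pairs both members fell in the same class, 19 higher, 55 lower and 11 within 2-fold, and 5 pairs had opposite calls. The calcineurin B-like proteins 7, calcium sensors, are an example: gene_15190 had 0 FPKM in NT seeds and 5.6 in NT seedlings, and gene_37580 had 1.24 and 0.53 FPKM, with a log2 ratio whose interval included no change (1.23, -0.25 to 2.60). Within pairs the median difference in log2 ratio was 1.08.

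A protein was described for 1051 members, and 431 had none. Of the described members 210 were higher and 627 lower in NT seeds, and of those without a description 122 were higher and 187 lower. Among the members above 100 FPKM in either library, gene_23903 and gene_16937 had no described product, with 128.06 and 0.03 FPKM in NT seeds against 35.4 and 129.51 FPKM in NT seedlings.

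The second NT seed library, that of the DS10:A4a experiment, gave a check on the seed side alone. It lists 678 of the members, chosen by their response to A4a. Over the 516 members above 0 in both seed libraries, the log2 ratio of the A9 table's NT seeds over the other NT seeds had a median of -0.37 (quartiles -0.90 and 0.21, SD 0.99), and 358 members lay within 2-fold. At 5 FPKM or more in both, 43 of 46 members lay within 2-fold. For gene_79900, gene_2804 and gene_25232 the other NT seed library had 263.97, 137.33 and 145.46 FPKM, near the 232.01, 148.1 and 139.94 FPKM of the first.

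Both NT seed libraries were set against the same NT seedling library, so that their ratios share its error. Of 486 members above 0 in all 3 NT libraries, 114 were higher and 281 lower with the first seed library, and 105 and 250 of these had the same call with the other. No member was called in opposite directions by the 2 seed libraries. Of 148 members listed at 0 in the first, 107 were above 0 in the other, with a median over the 148 of 0.07 FPKM. A listed 0 was therefore not a stable absence.

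**Figure D5:**
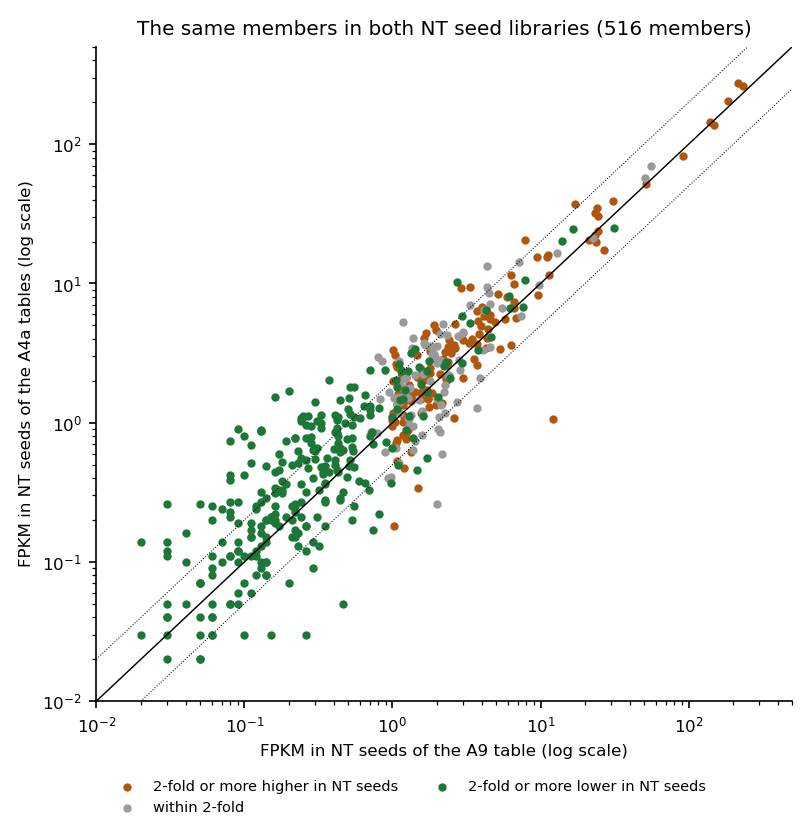
FPKM of the 516 members above 0 in both NT seed libraries, with the A9 table on the x axis and the A4a tables on the y axis, both on log scales; colours give the call against NT seedlings, the solid line marks equal FPKM and the dotted lines a fold of 2. Members above 5 FPKM lie close to the line (43 of 46 within 2-fold), and the points spread out toward low FPKM.

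The transgenic libraries gave a further pair of stages for the same members. DS10:A9 seeds over 35S:A9 seedlings kept the call for 769 of the 814 lower members and for 245 of the 332 higher ones. Opposite calls were found for 7 members, 4 of which were small heat shock proteins. In the transgenic libraries that list counted 3 higher and 4 lower of 9, with a median log2 ratio of -0.82. Of the 13 flavonoid enzymes after phenylalanine ammonia-lyase, 2 were higher and 3 lower in the transgenic libraries, with a median log2 ratio of 0.34, beside 9 higher and 2 lower with a median of 3.69 in the NT libraries. gene_79900 had 464.85 FPKM in DS10:A9 seeds, against 948.0 FPKM in 35S:A9 seedlings, beside 232.01 in NT seeds and 6.73 in NT seedlings. The light-harvesting list kept all 11 members lower. These genes had been selected for a response to A9 in both stages, and the lowest log2 ratio of A9 over NT in the table was 0.59 in both.

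The threshold of 1 FPKM cut through a continuous range. Just inside it, 89 members had a higher value under 1.1 FPKM, and just outside, 104 genes had one of at least 0.9 FPKM.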

How the data were processed

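The authors mapped the reads with HISAT (0.1.6), assembled transcripts with StringTie (1.04), aligned to the merged transcriptome with Bowtie2 (2.2.5) and computed the deposited FPKM with RSEM (1.2.12), versions as in the submitters' processing notes. The deposited tables write 0.01 for an FPKM of 0, which was read back as 0. RSEM estimates can be fractional, and low values may stand for less than 1 fragment. Their columns of the authors' log2 fold changes and p-values were not used. In the A9 table each gene has a row for seeds and one for seedlings, and the NT value of each was taken; 1 block with 2 different identifiers was skipped. Transcript lengths, also deposited, were the same in both rows for 1010 members and differed for 472. No genomic coordinates were used here. Which of the 2 NT seed samples belongs to which table is not named by the labels.

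Depth and a length correction (68 bases for NT seeds, 43 for NT seedlings) were fitted so that low FPKM became whole fragments, within 0.1 for 84.2% and 82.9% of 1420 and 1444 low values. Log2 ratios, intervals and counts were computed with Python 3.11.15, NumPy 2.4.6, SciPy 1.17.1 and pandas. The steps were tested on simulated data. The members, the gene lists (46 patterns in the protein descriptions) and the rule for named genes were chosen with earlier results of these data known. The patterns were trimmed of false matches, and 6 lists were added (phenylalanine ammonia-lyases, flavonoid enzymes after them, core histones, aquaporins, chloroplastic and mitochondrial proteins), after values were seen. The rule named, among described members, the 12 most abundant in each direction, the 8 with the largest difference of log2(FPKM + 1) in each direction, the 6 most abundant within 2-fold, the 3 most abundant of each list, and 16 members of the authors' list of 22 example genes. Members named beside these were chosen after their values were seen. With 1 library per stage no p-value was computed.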

Additional observations from a re-analysis of the deposited data

Results flagged for a closer look

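For 7 members the difference between seeds and seedlings ran 2-fold or more one way in the NT libraries and 2-fold or more the other way in the transgenic libraries. Each rests on 1 library per condition, and the difference between the pairs was not tested. The log2 ratio of DS10:A9 seeds over 35S:A9 seedlings was -1.03 for the small heat shock protein gene_79900, -1.09 for gene_2804, -1.45 for gene_66148 and -2.01 for gene_28690, beside 5.11, 5.87, 3.54 and 6.51 for NT seeds over NT seedlings. The FtsH protease gene_22233, of a family that removes damaged membrane proteins, had -2.53 beside 3.94, with 8.39 FPKM in DS10:A9 seeds, 48.38 FPKM in 35S:A9 seedlings, 2.3 FPKM in NT seeds and 0.15 FPKM in NT seedlings. gene_46117, described as UP-9A, had -1.73 beside 1.79, and gene_28649, with no described product, had -1.10 beside 1.12. The A9up selection used these transgenic libraries and the NT libraries.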

How the results depend on the processing

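The share of members higher and lower in NT seeds, 22.4% and 54.9%, was recomputed under each alternative, with the higher share first. It was 13.7% and 29.1% with no minimum FPKM, 22.5% and 67.1% with a minimum of 5, 21.1% and 69.9% with a minimum of 10, 12.6% and 43.7% at a fold of 4, 12.1% and 42.1% when the whole counting interval had to lie beyond 2-fold, 15.2% and 45.3% on log2(FPKM + 1), 33.5% and 43.7% when centred on the median ratio, and 17.6% and 55.7% in the transgenic libraries. Lower members outnumbered higher ones under each of these. For the 678 members in the A4a tables it was 20.6% and 63.7% with the NT seeds of the A9 table and 21.8% and 60.6% with the other NT seeds. A pseudocount of 0.1, the same transcript length in both rows, summing members with the same described product and leaving out retrotransposon-derived proteins moved neither share beyond its counting interval. With the NT seeds of the A4a tables, over the members listed there, list medians that had been 2-fold or more turned for MYB factors (-0.40, over 2 members, beside 1.81) and translation factors (-4.15, over 1 member, beside 1.76). Medians that had been within 2-fold changed sign for DnaJ cochaperones, sugar metabolism, E3 ubiquitin ligases, calcium sensors, retrotransposon-derived and mitochondrial proteins. Of 78 named genes, none that was 2-fold or more higher or lower turned, and gene_84516 within 2-fold had 0.22 in place of -0.54. No paired analysis was possible because each stage has 1 library per table and the labels give no replicate numbers that pair them. With 1 library per stage no replicate could be left out.

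The limits are those of 1 mixed library per stage, normalized separately, so that differences between plants, batches and extractions cannot be told apart from stage. Genes not raised by A9 in both experiments were not analysed here. How reads were divided between near-identical copies, such as light-harvesting and small heat shock genes, was not tested. Below about 5 FPKM the NT seed libraries often differed by more than 2-fold.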
